A study of Homo sapiens with 4 samples.

Results

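Interferon-stimulated genes were followed across 4 arrays of Hep3B cells, a human hepatocellular carcinoma line, that carried hairpin RNAs. The set held 40 named genes of 34809 gene names on the array, and each was read from its probe with the highest mean log2 signal. The genes were listed by name, because a response of these genes is a known side effect of hairpin RNA. Cells of the knockdown group had been transfected with 1 of 3 plasmids (shR-467, shR-554 or shR-749) whose short hairpin RNA targets the mRNA of UNC50, a Golgi membrane protein, at base 467, 554 or 749. Cells of the control group carried shR-MOCK, a pLKO.1 plasmid with a mock hairpin. All 4 cultures were therefore transfected, carried a hairpin vector and had been selected with puromycin, and untransfected cells were not analysed here. There was 1 array for each plasmid, so a response that the mock hairpin shares with the others would not appear as a difference. The spread between control cultures is not known, and the spread within the knockdown group is that between 3 different reagents.

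Interferons are secreted proteins that cells release when they detect viral nucleic acid. Double-stranded RNA in the cytoplasm is bound by helicases such as RIG-I and MDA5, which signal through MAVS to the kinases TBK1 and IKKε and the transcription factors IRF3 and IRF7. Type I interferon then acts on the receptor IFNAR1/IFNAR2, and the kinases JAK1 and TYK2 activate STAT2, which joins IRF9 in a complex that binds the interferon-stimulated response element (ISRE) in target promoters. Type II interferon acts through the GAS element and through IRF1. Hepatocytes make most of these components, and some cell lines lack parts of the pathway.

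UNC50 gave a signal of 5010 with shR-MOCK, 1050 with shR-467, 853 with shR-554 and 947 in shR-749 cells, so the labels of the knockdown arrays were borne out by the targeted gene. Signals are background-subtracted scanner units. For differences they were scaled by the 75th percentile of each array, which was 978 to 1390, and percentages of the mock level are after this scaling. The scanner software marked 67.6% to 73.6% of an array's spots as well above background, and no spot was saturated. All 10 hepatocyte and hepatoma markers were well above background on every array, with a summed signal of 438920 to 664650. Of 6 leukocyte markers 4 were well above background on every array, among them PTPRC (CD45) at 58.1 to 106, and of 3 markers of plasmacytoid dendritic cells, which secrete interferon, LILRA4 was well above background on every array at 45.9 to 57.0, while CLEC4C and IL3RA were below that range throughout. Of 5 fibroblast markers 1 was well above background on all arrays, as were all 3 endothelial markers, at 27.2 to 194. The part of such transcripts in the results was not tested.

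Of the 40 genes, 34 were tested, since their probe exceeded background clearly in the mock culture or with all 3 hairpins, and 30 of these were well above background on all 4 arrays. Another 4 passed through the mock array alone (OAS2, MX2, IFI27 and HERC5), which keeps them only where mock is high, and none passed through the knockdown arrays alone. The remaining 6 were not well above background on any array, with signals of 4.25 to 23.9. They were OASL, RSAD2 (viperin), IFI44, IFI44L, HERC6 and XAF1, genes that respond strongly to interferon in many cell types. Their levels with a hairpin against UNC50 and with the mock hairpin were both under the range in which this array gives more than a bound.

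**Figure D1:**
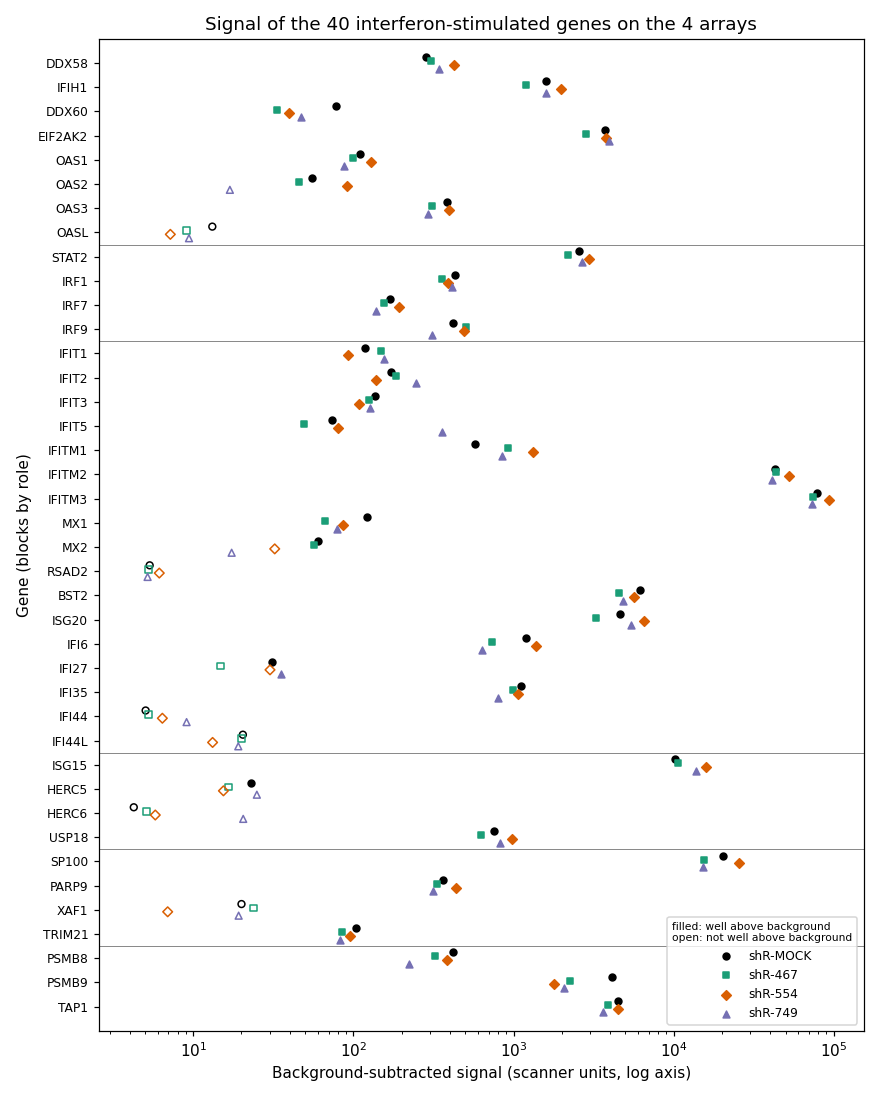
Background-subtracted signal of each of the 40 genes in scanner units (log axis), 1 point per array, in blocks by role (from the top: RNA sensors, transcription factors, antiviral effectors, the ISG15 pathway, other genes, antigen processing). Filled points were well above background and open points were not. The mock array lies to the right of the knockdown arrays for PSMB9, DDX60 and MX1 and to their left for IFITM1. Levels are not comparable between probes.

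PSMB9, DDX60 and MX1 were lower by at least 1.5-fold with every hairpin, and 0 genes were higher by that much with every hairpin. IFITM1 was higher by at least 1.5-fold on average, and PSMB9, DDX60, MX2 and MX1 were lower, where the MX2 mean includes 2 arrays on which it was below background. In 29 of 34 genes (85.3%) the mean difference was under 1.5-fold, against 90.3% of all genes tested, and in 20 of 34 (58.8%) the difference was under 1.5-fold with every hairpin, against 65.5%. The median difference of the 34 genes was -0.17 on the log2 scale, against -0.03 over all 24902 genes tested. By hairpin it was -0.07 with shR-467, -0.24 with shR-554 and -0.17 in shR-749 cells, where all genes stood at 0.03, -0.04 and -0.05.

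The counts were read against those over all genes tested. The share lower on average was 4 of 34 interferon-stimulated genes against a background of 7.47%, and 3 of 34 were lower with every hairpin against 1.18%. The share higher on average was 1 of 34 against 2.28%, and 0 of 34 were higher with every hairpin against 0.534%. Among the 30 genes well above background on all 4 arrays, 3 were lower on average and the same 3 lower with every hairpin, against backgrounds of 2.87% and 0.471%. In that set 1 was higher on average and 0 were higher with every hairpin, against 2.34% and 0.57%. The counts of 3 rest on so few genes that 1 gene more or less would move the share by several percentage points, and no test was made on them.

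By hairpin, lower genes were counted first among the 30 genes well above background on all 4 arrays. With shR-467 there were 3 (MX1, DDX60 and PSMB9), against 4.29% of all such genes. With shR-554 there were 6 (IFIT1, IFIT2, IFIT3, MX1, DDX60 and PSMB9), against 7.93%. With shR-749 there were 5 (IFI6, MX1, DDX60, PSMB8 and PSMB9), against 6.25%. Over the 34 genes tested, the counts of values past 1.5-fold were 4, 8 and 7, against 6.73%, 15.5% and 10.1%. The additional genes were below background with that hairpin, so that no exact size is known. These were IFI27 with shR-467 (mock at least 1.19-fold higher) and MX2 and OAS2 with shR-749 (at least 2.59-fold and 2.39-fold). With shR-554 they were HERC5 (at least 1.06-fold) and MX2, whose 2.31-fold is a measured ratio and not a firm bound. A difference of 1.5-fold is therefore not shown for IFI27, for HERC5 or for MX2 with shR-554. Higher genes past 1.5-fold were IFITM1 alone with shR-467 (background 7.18%), IFITM1 alone with shR-554 (background 4.39%) and IFIT5 alone with shR-749 (background 5.37%). The mock array gave the highest of the 4 scaled values for 10 of 34 genes, against 20.5% of all genes, and the lowest for 3 of 34, against 17.6%. The 10 genes were IFI6, MX1, OAS3, DDX60, IRF1, BST2, TRIM21, PSMB8, PSMB9 and TAP1, and the 3 were IFITM1, ISG15 and DDX58.

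**Figure D2:**
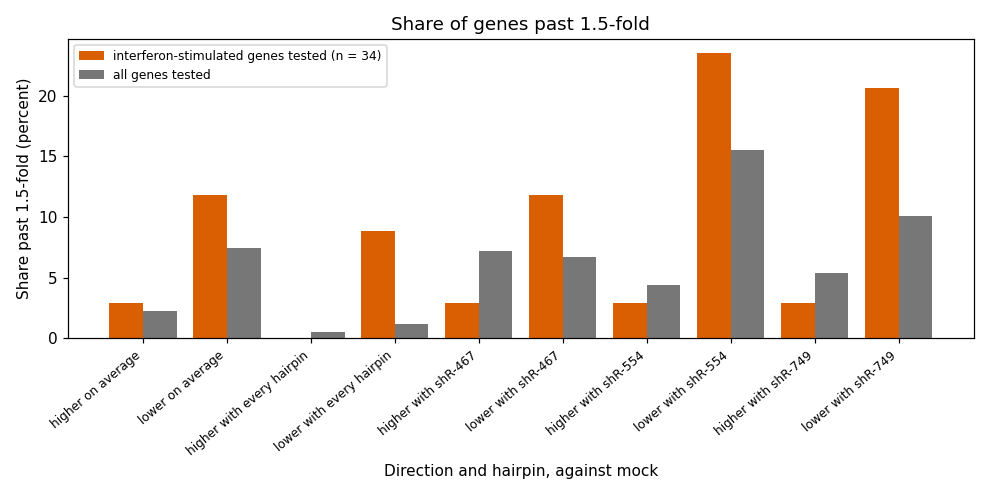
Share of genes at least 1.5-fold higher or lower than with shR-MOCK, in percent, for the 34 interferon-stimulated genes tested (orange) and all genes tested (grey), on average over the hairpins, with every hairpin and by hairpin. Lower genes made up 8.82% of the interferon-stimulated genes with every hairpin against 1.18% of all genes. Each orange step of 1 gene is 2.94%, and the lower shares include genes that were below background with a hairpin.

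In the fit across all genes (limma, Benjamini-Hochberg adjustment), 0 of 24902 genes (0.0%) reached an adjusted p under 0.05, and the smallest adjusted p, that of UNC50 included, was 0.6235 in limma. At an unadjusted p under 0.05 limma gave 377 genes (1.51%), of which 2 were interferon-stimulated genes, PSMB9 and IFITM1. The adjusted p in limma was 0.9998 for all 34 genes. An exact permutation test of 1 array against 3 cannot go below p = 0.25, so the differences below are sizes and spreads between reagents rather than test results.

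Sensors of double-stranded RNA and the enzymes they work with made up 8 of the genes, of which 7 were tested and DDX60 alone passed 1.5-fold on average. DDX58 encodes RIG-I, the helicase that binds short double-stranded RNA with a triphosphate end. Its signal was 285 with shR-MOCK, 304 with shR-467, 426 with shR-554 and 344 in shR-749 cells. After scaling, the knockdown arrays lay close together at 122%, 121% and 119% of mock, under the 1.5-fold threshold. A second DDX58 probe, also well above background on all arrays, gave a mean log2 difference of -0.15 where the first gave 0.27, so the direction of this small difference depended on the probe.

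IFIH1 encodes MDA5, the sensor of long double-stranded RNA. Its signal of 1585 with shR-MOCK compared with 1190 with shR-467, 1985 with shR-554 and 1594 in shR-749 cells, which is 86.0%, 101% and 99.7% of mock. EIF2AK2 encodes PKR, the kinase that halts translation when it binds double-stranded RNA, and it gave 3734, 2849.6, 3791 and 3958 on the same arrays, a mean log2 difference of -0.14 ± 0.19 (SD, n = 3 hairpins). Neither sensor was more than 1.5-fold from mock with any hairpin.

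DDX60 encodes a helicase described as a cofactor of RIG-I. Its probe (1 spot, chromosome 4, 169142891 to 169142950 of hg19) gave 77.6 with shR-MOCK, 33.3 with shR-467, 39.6 with shR-554 and 47.2 in shR-749 cells. All 3 knockdown arrays lay below the mock array, at 49.1%, 41.1% and 60.3% of its scaled level. The mean log2 difference was -1.01 ± 0.28 (SD, n = 3 hairpins), with a 95% interval in limma of -2.13 to 0.11. The signals were low, the lowest being 1.47 times the dimmest signal of its array that counted as well above background. With normexp background correction and quantile normalization the mean was -0.49, under 1.5-fold.

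The 2',5'-oligoadenylate synthetases make a small messenger molecule when they bind double-stranded RNA. OAS1 gave 109 with shR-MOCK, 99.8 with shR-467, 129 with shR-554 and 87.0 in shR-749 cells, and OAS3 gave 385, 308, 394 and 293 on these arrays. Their mean log2 differences were -0.12 ± 0.21 and -0.27 ± 0.14 (SD, n = 3 hairpins). OAS2 gave 55.4, 45.4, 90.7 and 16.9, and with shR-749 it was not well above background, so that the mock level was at least 2.39-fold higher. With shR-554 the same probe was higher than mock, and the 3 OAS2 probes differed by up to 1.84 on the log2 scale with a single hairpin, so OAS2 had no common direction.

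Of the 4 transcription factors of the response, 0 passed 1.5-fold with any hairpin, where 65.5% of all genes tested also stayed within it with every hairpin. STAT2 gave 2548 with shR-MOCK, 2193 with shR-467, 2970.0 with shR-554 and 2659 in shR-749 cells, which is 98.6%, 93.9% and 103% of mock. IRF9, its DNA-binding partner, gave 418, 504, 490.1 and 309.6, with log2 differences of 0.47, -0.08 and -0.45 that ran in both directions. IRF7, the factor that raises interferon genes themselves, gave 169, 154, 192 and 139. IRF1, the factor of the interferon-gamma response, gave 432, 359.9, 392 and 415 and lay below mock with each hairpin, with a mean log2 difference of -0.20 ± 0.22 (SD, n = 3 hairpins) that is smaller than its spread.

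Effectors made up 17 genes, of which 14 were tested. On average IFITM1 was higher by at least 1.5-fold, MX1 and MX2 were lower, and 11 lay within 1.5-fold. The IFIT proteins bind foreign RNA that lacks the cap marks of cellular mRNA. IFIT1 gave 118 with shR-MOCK, 149 with shR-467, 92.7 with shR-554 and 155 in shR-749 cells. IFIT2 gave 172, 183, 138 and 246 on these arrays. IFIT3 gave 137, 126, 109 and 127. All 3 were lowest with shR-554, at 63.3%, 64.7% and 64.1% of mock, while with shR-467 they stood at 144%, 122% and 105% and with shR-749 at 130%, 142% and 91.9%. Genes past 1.5-fold lower were also more frequent with shR-554 than with the other hairpins over the whole array.

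IFIT5 binds similar RNA and lies in the same gene cluster on chromosome 10. Its probe of 1 spot gave 73.9 with shR-MOCK, 49.1 with shR-467, 79.6 with shR-554 and 360.0 in shR-749 cells. The value with shR-749 was 4.83-fold above mock while the other hairpins stood at 76.1% and 86.8%. The mean log2 difference of 0.56 rested on that array, and without shR-749 it was -0.30. IFIT1, IFIT2 and IFIT3 did not share this pattern.

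The IFITM proteins sit in membranes and hinder the fusion of enveloped viruses. IFITM1 (2 spots, chromosome 11, 315209 to 315268 of hg19) gave 574 with shR-MOCK, 924 with shR-467, 1315 with shR-554 and 849.6 in shR-749 cells. All 3 knockdown arrays lay above the mock array, at 1.84-fold, 1.85-fold and 1.47-fold. The mean log2 difference was 0.77 ± 0.19 (SD, n = 3 hairpins), with a 95% interval in limma of 0.19 to 1.36 and an unadjusted limma p of 0.01716. A second IFITM1 probe gave 206, 357, 536 and 291 and a mean log2 difference of 0.85 ± 0.31 (SD, n = 3 hairpins). The neighbouring genes IFITM2 and IFITM3 gave 41000 to 52200 and 73200 to 93000, and their mean log2 differences were 0.04 and -0.02. The higher level of IFITM1 was therefore not seen in IFITM2 or IFITM3.

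MX1 and MX2 encode dynamin-like GTPases that restrict influenza virus and HIV. MX1 (2 spots, chromosome 21, 42831014 to 42831073 of hg19) gave 121 with shR-MOCK, 66.8 with shR-467, 85.8 with shR-554 and 78.7 in shR-749 cells. The knockdown arrays lay at 63.2%, 57.1% and 64.5% of mock. The mean log2 difference of -0.70 ± 0.09 (SD, n = 3 hairpins) had the smallest spread of the genes past 1.5-fold, and its 95% interval in limma, which borrows spread from other genes, was -1.54 to 0.14. With normexp correction the mean was -0.42, under 1.5-fold. MX2 gave 60.1, 57.0, 32.3 and 17.4. It was near mock with shR-467, and with shR-554 and shR-749 it was not well above background. The mock level was at least 2.59-fold higher than with shR-749. With shR-554 the measured ratio was 2.31-fold, which is not a firm bound.

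The other effectors tested lay within 1.5-fold of mock on average. BST2 (tetherin), which holds budding virus at the cell surface, gave 6180 with shR-MOCK, 4559 with shR-467, 5678 with shR-554 and 4839 in shR-749 cells, below mock with every hairpin at 84.5%, 74.0% and 77.6%. IFI6, a membrane protein that counters flavivirus replication, gave 1195, 729, 1375 and 637, which is 69.9%, 92.7% and 52.9% of mock. IFI35 gave 1116, 987, 1062 and 802, within 1.5-fold of mock with every hairpin. ISG20, an RNA exonuclease, gave 4599.8, 3259.9, 6538 and 5434, with a mean log2 difference of 0.04 ± 0.30 (SD, n = 3 hairpins). IFI27 lay near the detection limit at 14.8 to 35.1, and the mock level was at least 1.19-fold higher than with shR-467. With shR-554 IFI27 was not well above background, and the measured ratio of 1.27-fold is not a firm bound.

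**Figure D3:**
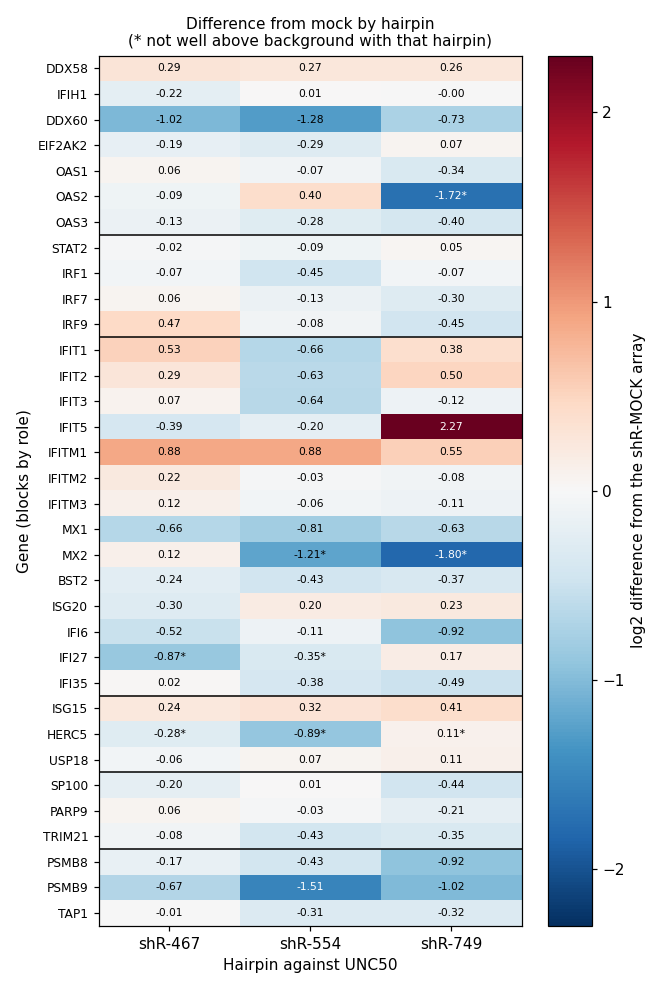
Log2 difference of each of the 34 tested genes from the shR-MOCK array, by hairpin, in blocks by role. Blue is lower and red is higher than mock, each cell gives its value, and an asterisk marks a probe that was not well above background with that hairpin. DDX60, MX1 and PSMB9 are blue in every column and IFITM1 is red in every column.

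ISG15 is a ubiquitin-like protein that is joined to newly made proteins during the response and removed by USP18, which also dampens the interferon receptor. ISG15 gave 10247 with shR-MOCK, 10598 with shR-467, 15895 with shR-554 and 13750 in shR-749 cells. It was at 118%, 125% and 133% of mock, higher with each hairpin and under 1.5-fold with each. The mean log2 difference was 0.33 ± 0.08 (SD, n = 3 hairpins), with a 95% interval in limma of -0.08 to 0.73. USP18 gave 753, 629, 982 and 821 and stood at 95.7%, 105% and 108%. HERC5, the ligase that attaches ISG15, passed the background test with shR-MOCK alone, at 23.0, and read 15.4 to 24.9 on the others. UBE2L6 and UBA7, the enzymes that pass ISG15 to HERC5, had mean log2 differences of -0.21 ± 0.04 and -0.40 ± 0.41 (SD, n = 3 hairpins). ISG15 and its enzymes thus did not differ from mock in 1 direction.

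SP100, a protein of PML nuclear bodies, gave 20398 with shR-MOCK, 15500 with shR-467, 25549 with shR-554 and 15197 in shR-749 cells. Its first probe gave a mean log2 difference of -0.21 and another 0.09, with a gap of up to 0.87 with a single hairpin. PARP9, an ADP-ribosyltransferase family member, stayed at 86.3% to 104% of mock. TRIM21, the cytosolic antibody receptor, gave 103, 85.3, 95.5 and 82.1 and was lower with each hairpin, at 94.3%, 74.3% and 78.6% of mock. None of these reached 1.5-fold.

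The antigen-processing genes gave the largest mean difference of the set. PSMB8 and PSMB9 encode subunits of the immunoproteasome, the form of the proteasome that interferon-gamma favours for making peptides for MHC class I, and TAP1 encodes part of the transporter that carries these peptides into the endoplasmic reticulum. PSMB9 (2 spots, chromosome 6, 32823918 to 32823977 of hg19) gave 4119.8 with shR-MOCK, 2259.6 with shR-467, 1795 with shR-554 and 2054 in shR-749 cells. The mock array exceeded all 3 knockdown arrays, which stood at 62.8%, 35.1% and 49.4% of it. The mean log2 difference was -1.07 ± 0.42 (SD, n = 3 hairpins), with a 95% interval in limma of -1.84 to -0.29 and an unadjusted limma p of 0.01378. The probe was bright, at no less than 66.9 times that dimmest signal of its array, and the mean stayed between -1.26 and -0.84 under all alternatives.

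PSMB8 gave 419 with shR-MOCK, 325 with shR-467, 386 with shR-554 and 223 in shR-749 cells, which is 88.9%, 74.3% and 52.9% of mock and past 1.5-fold with shR-749 alone. TAP1 gave 4500, 3915, 4507 and 3645 and stood at 99.6%, 80.7% and 80.3%. The third inducible proteasome subunit, PSMB10, had a mean log2 difference of -0.22 ± 0.09, and the activator subunits PSME1 and PSME2 had -0.07 ± 0.15 and -0.22 ± 0.45 (SD, n = 3 hairpins). The MHC class I chains HLA-B and HLA-C had -0.01 and 0.08, and their partner B2M had -0.09. TAP2 and TAPBP lay below mock with each hairpin, with mean log2 differences of -0.36 and -0.45, while NLRC5 lay above mock with each, at 0.25. With shR-749 alone, TAPBP and PSME2 were 1.71-fold and 1.57-fold lower. Of 15 further genes of MHC class I presentation 0 passed 1.5-fold on average, and their median was -0.07. Of all genes tested 90.3% also stayed within 1.5-fold on average, so a count of 0 does not set this list apart.

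PSMB9 and TAP1 lie head to head, with 487 bases between their gene starts. The log2 difference of PSMB9 was below that of TAP1 with each hairpin, by -0.67 with shR-467, -1.20 with shR-554 and -0.70 in shR-749 cells, a mean of -0.86 ± 0.30 (SD, n = 3 hairpins). The 250 bases before each gene start are shown for this pair, which share the stretch between their starts and differed, and for DDX60 and MX1, the other genes past 1.5-fold with every hairpin. The sequences are from RefSeq on GRCh38.p14 and are written 5' to 3' on the gene's strand, and capitals mark matches to the ISRE. TAP1 was added after its values were seen.
PSMB9 (chr6:32853942-32854191, plus strand): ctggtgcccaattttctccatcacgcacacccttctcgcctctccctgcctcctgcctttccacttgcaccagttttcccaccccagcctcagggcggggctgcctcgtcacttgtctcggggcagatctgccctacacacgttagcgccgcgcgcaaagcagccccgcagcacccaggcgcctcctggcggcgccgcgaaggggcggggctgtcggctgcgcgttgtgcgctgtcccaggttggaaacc
TAP1 (chr6:32853705-32853954, minus strand): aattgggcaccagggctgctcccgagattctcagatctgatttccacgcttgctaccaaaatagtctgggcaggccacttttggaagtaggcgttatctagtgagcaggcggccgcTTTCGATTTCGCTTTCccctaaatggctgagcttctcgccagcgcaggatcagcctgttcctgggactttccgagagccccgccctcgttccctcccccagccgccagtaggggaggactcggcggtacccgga
DDX60 (chr4:168318753-168319002, minus strand): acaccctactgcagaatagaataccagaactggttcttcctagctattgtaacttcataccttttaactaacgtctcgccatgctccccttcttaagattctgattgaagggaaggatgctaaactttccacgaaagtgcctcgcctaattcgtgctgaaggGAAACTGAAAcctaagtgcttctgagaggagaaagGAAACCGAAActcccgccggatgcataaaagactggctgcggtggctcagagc
MX1 (chr21:41420308-41420557, plus strand): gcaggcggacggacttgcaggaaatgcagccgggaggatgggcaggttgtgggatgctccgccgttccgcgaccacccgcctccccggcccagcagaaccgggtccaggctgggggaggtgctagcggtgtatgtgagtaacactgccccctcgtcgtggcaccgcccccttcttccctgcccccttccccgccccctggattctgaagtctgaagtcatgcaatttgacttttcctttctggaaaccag

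The ISRE was searched on both strands as GAAA, any 2 bases and GAAA. The TAP1 window held 2 overlapping matches on the opposite strand, at 134 and 128 bases before its gene start. These lie between the starts of TAP1 and PSMB9 but outside the PSMB9 window, with which the TAP1 window shares 13 bases. DDX60 held 2 matches, at 88 and 53 bases before its start, and the windows of PSMB9 and MX1 held none. The genes past 1.5-fold lower with every hairpin therefore included both a window with the element and windows without it. Each gene was searched only before the start given by RefSeq. An element at another start of the gene, or further away, would be missed, so MX1 and PSMB9 are not shown to lack it. The MX1 window also holds GAAA and GAAA with a shorter spacer on the opposite strand, which the search did not count. Of the 3 genes whose values were above mock with every hairpin, ISG15 and IFITM1 had windows with the element and DDX58 had one without it. The direction of DDX58 depended on the probe, since its second probe had a mean log2 difference of -0.15.

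Promoters of 33 of the 40 genes matched an entry of the RefSeq table, and 17 of these (51.5%) held the ISRE letters, against 3.07% of all 27305 promoters. The GAS letters, TTCNNNGAA on either strand, were in 8 of 33 (24.2%) against 6.78%. Among the tested genes, 15 with the ISRE had a median log2 difference of -0.21 and 13 without it had -0.20. The differences ran from -1.01 to 0.77 with the element and from -1.07 to 0.27 without it. A match describes the letters of the window and is not evidence of binding. The groups rest on these exact letters. The windows of OAS1, DDX58, IFI35 and MX1, counted without the element, hold GAAA and GAAA with a shorter spacer (in MX1 on the opposite strand). PSMB9 is also counted without it, though the TAP1 matches lie between the starts of that pair. The medians therefore do not compare genes with and without a response element.

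**Figure D4:**
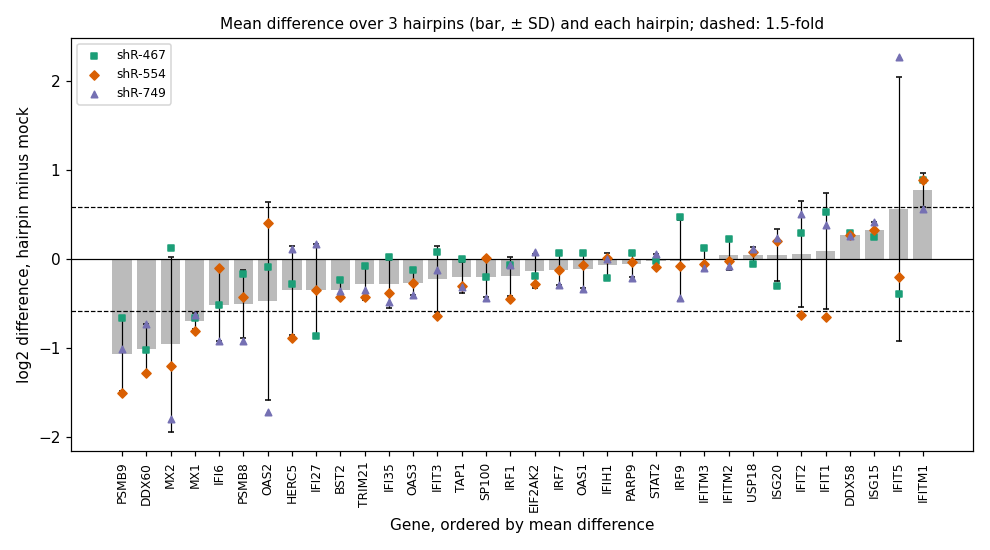
Mean log2 difference of the 34 tested genes from shR-MOCK (bar, ± SD over 3 hairpins) in order of size, with each hairpin as a point and dashed lines at 1.5-fold. MX2, OAS2, HERC5 and IFI27 include arrays on which the probe was not well above background. PSMB9, DDX60 and MX1 have all 3 points below the lower line, and the IFIT5 bar rests on shR-749.

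Of the interferon genes themselves 17 had a probe and 4 were tested (IFNA4, IFNA21, IL28A and IL29), with signals of 14.8 to 146, and IFNB1 was not among those above background. Only IFNA4 and IL28A were well above background on every array, while IFNA21 and IL29 passed through the mock array alone. All 10 receptors and kinases on the array were well above background on every array. On average 0 passed 1.5-fold, where 90.3% of all genes tested also stayed within it, while IFNAR1 with shR-554 and IFNAR2 with shR-749 passed it singly. IFNAR1 gave 452 with shR-MOCK, 378 with shR-467, 359.9 with shR-554 and 610.5 in shR-749 cells. IFNAR2 gave 2360, 2214, 2425 and 1140, past 1.5-fold lower with shR-749, where its log2 difference was -1.06. The interferon-gamma receptor chains IFNGR1 and IFNGR2 had mean log2 differences of -0.13 and -0.25, the interferon-lambda receptor chains IL28RA and IL10RB had 0.01 and -0.09, and the kinases JAK1, JAK2 and TYK2 had -0.02, 0.07 and -0.07. The receptor chains and kinases had a median of -0.09.

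In the list for double-stranded RNA sensing beyond the 40 genes, 12 were well above background on all arrays. Of these TLR3 and IKBKE were lower by 1.5-fold on average and 0 were higher, against 2.87% and 2.34% of all such genes. TLR3, the endosomal sensor, gave 126 with shR-MOCK, 76.3 with shR-467, 56.9 with shR-554 and 90.5 in shR-749 cells, a mean log2 difference of -0.82 ± 0.55 (SD, n = 3 hairpins). The adaptor MAVS and the kinase TBK1 had 0.17 and -0.04. Of 9 genes of the small RNA machinery that processes and loads hairpins, 0 passed 1.5-fold on average, and DICER1 had 0.07 ± 0.01 (SD, n = 3 hairpins), while EIF2C4 was 1.60-fold lower with shR-749. The 7 negative regulators of interferon signalling, USP18 among them, likewise stayed within 1.5-fold on average, with IRF2 1.55-fold lower in shR-554 cells, and SOCS1 had the lowest mean at -0.34. Both lists are short, and 90.3% of all genes tested also stayed within 1.5-fold on average.

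Of 29 further interferon-stimulated genes on the array 22 were well above background on all arrays, with a median log2 difference of -0.27. Of these 6 were lower by 1.5-fold on average and 0 higher, against 2.87% and 2.34% of all such genes. CXCL10, a chemokine that attracts T cells, gave 2224 with shR-MOCK, 1119 with shR-467, 727 with shR-554 and 839 in shR-749 cells, lower with every hairpin by a mean log2 difference of -1.38 ± 0.57 (SD, n = 3 hairpins; unadjusted limma p 0.01218). SAMD9L, an antiviral and growth-restraining protein, gave 33.3, 17.7, 7.29 and 8.98 and was below background with every hairpin, so that the mock level was at least 1.29-fold, 1.54-fold and 1.44-fold higher. GBP1, a GTPase strongly induced by interferon-gamma, gave 468, 301, 327 and 257, a mean of -0.72 ± 0.24 (SD, n = 3 hairpins).

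NF-kappa-B, a factor that double-stranded RNA and TNF activate, also acts on CXCL10, PSMB9 and TAP1. Its part in the differences was not tested. The array held 11 of its target genes. The 10 tested were well above background on all arrays, with a median log2 difference of -0.54. Of these 4 were lower by 1.5-fold on average (IL8, CXCL1, BIRC3 and TNF) and 0 higher, against 2.87% and 2.34% of all such genes. TNF gave 147 with shR-MOCK, 61.9 with shR-467, 72.3 with shR-554 and 63.2 in shR-749 cells, lower with every hairpin, while CXCL1 gave 15944, 4865, 26249 and 5150 and was higher than mock with shR-554. NFKBIA, the inhibitor that NF-kappa-B induces, was lower by less than 1.5-fold on average, with log2 differences of -0.34, -0.60 and -0.69. Over all pathway lists without the 40 genes, 86 of 110 genes on the array were well above background on all 4 arrays. Of these 12 were lower on average and 0 higher, against the backgrounds of 2.87% and 2.34%, CXCL10 and TNF were lower with every hairpin, and the median was -0.16. In bulk RNA, fewer cells that express a gene and less of its RNA per cell cannot be told apart.

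**Figure D5:**
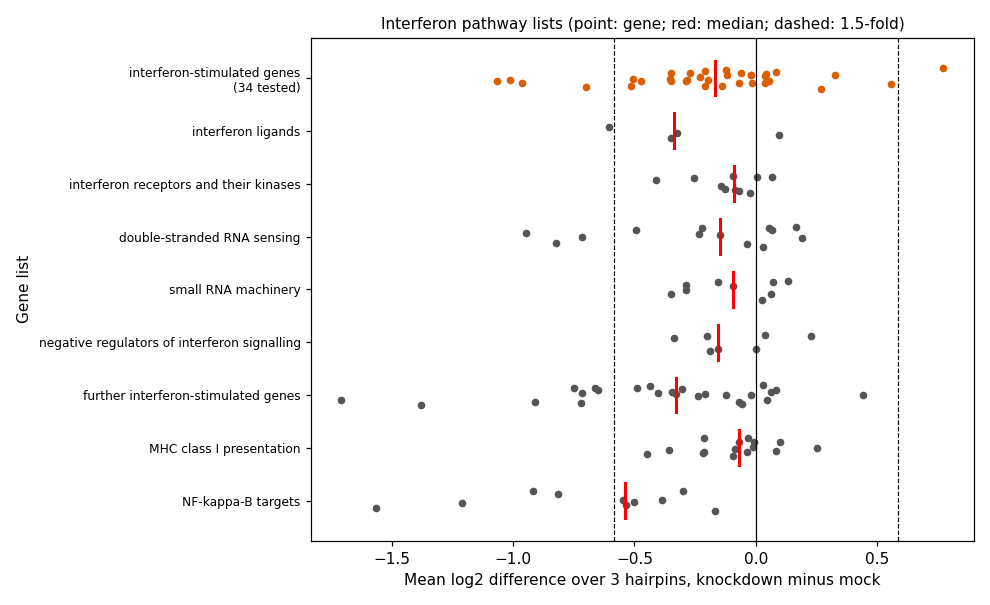
Mean log2 difference over the 3 hairpins, knockdown minus mock, of the tested genes of the interferon-stimulated set (orange) and of other pathway lists (grey). Each point is a gene (some were below background with a hairpin), its height within a row has no meaning, red bars are medians and dashed lines mark 1.5-fold. The receptors, small RNA machinery and MHC class I genes lie within the lines, as do 90.3% of all genes tested. Of the other lists 0 genes lie beyond the upper line, where 2.28% of all genes tested do.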

How the data were processed

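Total RNA of 4 Hep3B cultures was labelled with Cy3 and hybridised to 1-colour Agilent arrays. The authors deposited the scanner output (Agilent Feature Extraction 10.7.1.1 per the submitters' processing notes), with intensity before and after background subtraction, and a table of processed log2 values, whose normalization is not given in the sources used here. Samples were grouped by the labels into 1 mock and 3 knockdown arrays, 1 per hairpin. That these came from separate cultures is not stated beyond the plasmid names, so p-values measure the spread between arrays.

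The log2 processed signal minus the array's 75th percentile over spots other than controls was used. Marked outlier spots were left out (254 to 466 per array) and a probe's spots were averaged. For the probes of these genes the median SD between spots of an array was 0.049 to 0.068 on the log2 scale. A gene was tested when most spots of its probe passed the software's background test with shR-MOCK or with each of the 3 hairpins. Where it was not well above background in a culture, "at least" gives the mock level over the higher of the array's lowest signal well above background and the probe's own signal, both scaled. Where the probe's own signal was the higher, as for MX2 and IFI27 with shR-554, the value is the measured ratio and not a firm bound. Limma 3.58.1 (lmFit, eBayes with trend, R 4.3.3) compared knockdown with mock with 2 degrees of freedom left for the residual and 4.92 from the prior, with Benjamini-Hochberg adjustment over 24902 genes, assuming that the lone mock array varies like the hairpins. The threshold of 1.5-fold (0.585 on the log2 scale) follows the study's methods. The limma fit was also run on simulated data whose mock array was drawn with the spread of the hairpins. That run could not check whether the real mock array varies like them. The 4 arrays shared 1 slide and 1 scan, so neither could be fitted as a block.

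Genes named with all signals were the 14 with the largest mean difference among those above background on every array, the sensors, transcription factors, ISG15, IFIT1 and OAS1, pathway genes past 1.5-fold with every hairpin and the receptors. Other genes were picked with their values in view, and some genes of the rule are not reported here. The genes and lists were chosen with earlier results of these data known. All 40 symbols matched RefSeq (GRCh38.p14), 1 by synonym. IFIT2, IFITM2, IRF7, MX2, OAS2, OASL and USP18 had no promoter entry. Alternatives were quantile and median scaling, normexp (offset 50), the authors' log2 values, raised low signals, other filters, marked spots kept, the mean over probes, a 2-fold threshold, limma without trend, the methods' t-test and each hairpin left out.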

Additional observations from a re-analysis of the deposited data

How the results depend on the processing

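For the 34 genes, 404 alternative values of the mean difference were computed, of which 399 moved by less than the spread between hairpins, 5 moved by more and 0 of the values past 1.5-fold turned sign. With normexp correction and quantile normalization, which raises low signals, 1 gene was lower on average (4 as reported) and 1 with every hairpin (3 as reported), with 2 lower for shR-467, 1 for shR-554 and 3 in shR-749 cells, the median was -0.076, MX1, DDX60 and DDX58 had means of -0.42, -0.49 and 0.22, and limma called 4 genes, none of them of this set. Without a filter on dim probes 2 genes were higher on average and 3 with shR-749. Genes let in this way were also lower, all below background: OASL had a mean of -0.67. With shR-554, OASL, IFI44L and XAF1 had -1.18, -0.94 and -1.84. At 2-fold, 0 genes were higher and 2 lower on average, and 0 were lower with every hairpin. By hairpin, 0 were higher and 1 lower with shR-467, 0 higher and 3 lower with shR-554, and 3 lower with shR-749. DDX58 had 0.25 in the authors' values and 0.06 as the mean over its probes.

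With each hairpin left out in turn, between 1 and 2 genes were higher on average (2 without shR-467 and 2 without shR-554), 0 to 1 were higher with every hairpin (1, IFITM1, without shR-749), 4 to 6 were lower on average and 3 to 4 lower with every hairpin. The median lay between -0.21 and -0.10. Limma called 0 to 1 genes, the 1 being REG3A without shR-554, and 0 of this set.

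The methods' t-test gave 642 genes at an unadjusted p under 0.05 and 0 after adjustment. Under every scaling the median of all genes stayed within 0.1 of that reported. No paired analysis was possible because the mock group has 1 array and the labels give no replicate numbers. Signals near background limit DDX60, MX2, OAS2, IFI27 and HERC5, and the 6 genes below background have no measured difference.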
